A study of Mus musculus with 4 samples.

Results

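Translation turns mRNA into protein with a set of soluble factors. Of the 14884 named genes analysed on these arrays, 53 are described here. Their symbols match a pattern for such factors, for enzymes that charge tRNA with amino acids, or for proteins that act directly on the factors. The pseudogene EEF1DP3 is among them, and other measured genes of these kinds, such as TARS3, fall outside the pattern. Members were taken by gene symbol alone: the EIF and EEF families, the release factor genes, the aminoacyl-tRNA synthetases of the form AARS1 or AARS2, EPRS1 and the synthetase scaffold genes. The RNA came from SW620, an established cell line of human colon cancer. The groups compared were these, each on 2 arrays: untreated SW620 cells and SW620 cells exposed to F5446, an inhibitor described as selective for the histone methyltransferase SUV39H1, at 50 nM for 2 days. Both groups were grown in the same medium and stand for 1 cell line, and the labels name no engineered allele. The sources used here do not give whether the untreated cells received the solvent or whether a group's arrays came from separate cultures, so p-values reflect array-to-array spread, which may be technical. The organism field of the sample records reads mouse, but the cells are stated to be human and the probe annotation lists human genes, so the genes were read as human.

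In a cell, each aminoacyl-tRNA synthetase joins 1 kind of amino acid to its tRNAs, with separate enzymes for the cytosol and the mitochondrion in most cases. Initiation factors bring the first tRNA and the mRNA to the small ribosomal subunit and select the start codon, elongation factors deliver charged tRNA and move the ribosome along, and release factors end the chain. Initiation is held back by kinases that phosphorylate the factor EIF2 and by EIF4E-binding proteins that occupy the cap-binding factor EIF4E. Under EIF2 phosphorylation the transcription factor ATF4 is made, and several cytosolic synthetase genes are known among its targets.

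The members were 17 cytosolic synthetases, the scaffold gene AIMP1, 14 initiation factors, 8 elongation factors, 2 termination factors, 10 regulators and 1 pseudogene. Coverage is uneven. None of the 17 mitochondrial synthetases had a probe set annotated with that gene alone, so cytosolic synthetases could not be set against mitochondrial ones. The subunits of EIF3, EIF2 and EIF2B, and EIF4A1, EIF4A2 and EIF4G1 to EIF4G3, were likewise not analysed here, so the initiation factors described stand for part of that machinery.

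The values are log2 signals, 1 probe set per gene. Replicate arrays correlated at 0.994 (control) and 0.995 (F5446) across genes, which are not independent replicates. Colon epithelial genes were present, with EPCAM at 10.97 and 11.11 and KRT18 at 11.80 and 11.82 on the control arrays, while KRT20 stayed between 3.08 and 3.70 on all arrays. Of the 12 epithelial markers measured, 7 fell and 2 rose after F5446, with signals between 3.08 and 11.82: LGR5 fell 23.9-fold, VIL1 14.7-fold, KRT18 2.16-fold and EPCAM 1.69-fold, and CEACAM5 rose 3.80-fold. Of 9 immune markers, with signals between 3.61 and 11.50, 1 rose (CD68, 12.9-fold) and 3 fell (PRF1 6.08-fold, LYZ 3.45-fold and CD4 2.83-fold). Of 6 stromal and endothelial markers, with signals between 1.91 and 9.72, VIM rose 2.08-fold and LUM fell 8.12-fold. On the control arrays PRF1 read 9.29 and 9.21, VIM 8.60 and 8.64, CD68 7.83 and 7.77, and LUM 7.04 and 7.03. CD4 read 6.67 and 7.08 there, and LYZ 6.77 and 6.66. CD8A, GNLY, CD2, NKG7 and VWF read between 3.88 and 5.97 on the control arrays. CD14, PECAM1, KDR and DCN were at 3.93 or less on every array. These counts use limma's test at an adjusted p of 0.05, which 40.9% of all named genes passed. The shares were 75% of the epithelial, 44.4% of the immune and 33.3% of the stromal and endothelial markers. The part of these marker shifts in the results below was not tested.

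After F5446, 35 of the 53 members passed limma's test at an adjusted p of 0.05, 21 higher and 14 lower. Over all named genes 40.9% passed, 18.2% higher and 22.7% lower. The members' shares were 66.0%, 39.6% and 26.4%. Genes with more signal passed more often. Of the 10242 named genes whose mean signal reached 4.43, the median of all probe sets, 55.7% passed. All but 2 members (EEF1DP3 and GSPT2) lay above that level. The level is low, and the cytosolic synthetases read from 6.96 to 12.01, so the 55.7% is not matched to the members in signal. Groups did not overlap (both treated arrays above, or both below, the 2 control arrays) for 48 members, against 66.2% of all genes. The median log2 fold change was 0.10 over the members and -0.05 over all genes. Only 3 members changed at least 2-fold, EIF5A2, SARS1 and WARS1, all upward. In bulk RNA fewer cells of a type and less RNA per cell cannot be told apart.

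The direction of change differed by role. The roles were assigned with earlier results of these data known, so this difference carries no test. Cytosolic synthetases were mostly higher (12 of 17, 2 lower), the regulators mostly lower (7 of 10, 1 higher), and initiation factors (6 higher and 2 lower of 14) and elongation factors (2 and 2 of 8) were mixed. The shares that passed were 82.4% of the synthetases, 80% of the regulators, 57.1% of the initiation factors and 50% of the elongation factors. Among all named genes whose mean signal reached the median of all probe sets, 55.7% passed. The initiation and elongation factors thus passed about as often as those genes, which are not matched to any role in signal. In the fit without dim genes, 2689 of 10242 named genes were higher and 3275 lower. The median log2 fold change was 0.32 for the synthetases, 0.19 for the initiation factors, 0.09 for the elongation factors and -0.54 for the regulators. When the median of the named genes was set equal on all arrays (centring), log2 fold changes moved up by 0.13. The calls over all genes then became 3420 higher and 2735 lower, in place of 2714 and 3372, and those of the members 25 higher and 11 lower.

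**Figure D1:**
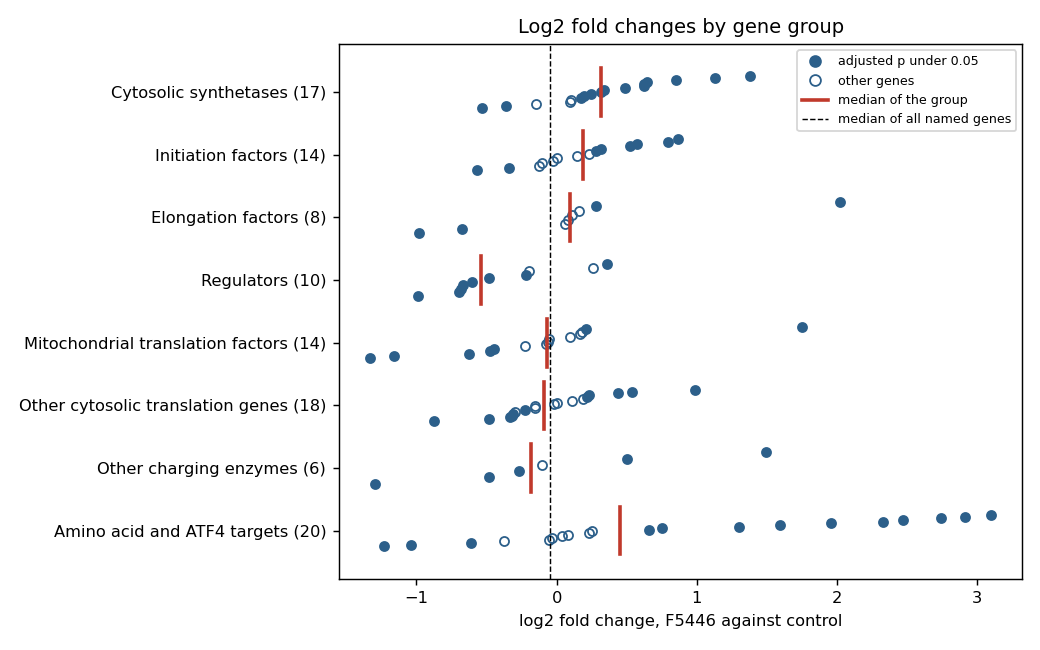
Log2 fold change, F5446 against control, of each gene (points) by gene group, with the number of genes in brackets; filled points passed limma's test, red bars are group medians and the dashed line is the median of all named genes. The cytosolic synthetases have a median of 0.32 and the regulators one of -0.54.

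Among the cytosolic synthetases the largest rises were those of the serine, tryptophan and leucine enzymes. SARS1, which charges serine tRNAs, read 8.90 and 8.76 on the control arrays and 10.25 and 10.16 on the treated arrays, a 2.60-fold rise (log2 fold change 1.38 ± 0.07, SE, adjusted p = 6.86e-07). WARS1, the tryptophan enzyme, read 7.10 and 6.96 against 8.19 and 8.12, a 2.19-fold rise (1.13 ± 0.09, SE, adjusted p = 1.10e-05). LARS1, the leucine enzyme, which also takes part in sensing leucine for the kinase mTOR, read 9.53 and 9.56 against 10.42 and 10.38, a 1.80-fold rise (0.85 ± 0.06, SE, adjusted p = 2.79e-06). In each the treated arrays lay clear of the control arrays by many times the gap within a group. A second, dimmer WARS1 probe set changed in the same direction, by 0.44 on the log2 scale.

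The next largest rises were those of the alanine, cysteine, glycine and tyrosine enzymes. AARS1, the alanine enzyme, read 11.40 and 11.31 without and 12.01 and 11.99 with F5446 (1.56-fold, log2 fold change 0.64 ± 0.05, SE, adjusted p = 4.94e-06). CARS1, the cysteine enzyme, read 8.11 on both control arrays and 8.77 and 8.69 on the treated ones (1.54-fold, adjusted p = 0.000115). GARS1, which supplies glycine enzyme to both the cytosol and the mitochondrion from 1 gene, read 10.51 and 10.49 against 11.10 and 11.14 (1.54-fold, adjusted p = 8.47e-06). These 3 rises were close to one another, at 0.62 to 0.64 on the log2 scale, within their standard errors. YARS1, the tyrosine enzyme, read 8.40 and 8.42 against 8.92 and 8.88 (1.41-fold, adjusted p = 0.000349).

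The remaining rises were below 1.3-fold. RARS1, the arginine enzyme, read 10.18 and 10.27 against 10.49 and 10.64 (1.26-fold, adjusted p = 0.00249). EPRS1, a fusion that charges both glutamate and proline tRNAs, read 10.04 and 10.05 against 10.35 and 10.38 (1.24-fold, adjusted p = 0.00106). MARS1, the methionine enzyme, read 9.55 and 9.40 against 9.76 and 9.68 (1.19-fold, adjusted p = 0.0204). Like the larger rises, these showed no overlap between the groups, as did 66.2% of all named genes. KARS1, which makes both the cytosolic and the mitochondrial lysine enzyme, read 11.36 and 11.43 against 11.56 and 11.61 (1.14-fold, adjusted p = 0.00924). NARS1, the asparagine enzyme, read 10.54 on both control arrays against 10.70 and 10.71 (1.13-fold, adjusted p = 0.0191).

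The valine and glutamine enzymes went the other way. VARS1 read 8.33 and 8.29 on the control arrays and 7.73 and 7.83 on the treated ones, a 1.45-fold fall (log2 fold change -0.53 ± 0.08, SE, adjusted p = 0.00056), and its second probe set changed by -0.48. QARS1 read 9.43 and 9.30 against 8.97 and 9.04, a 1.29-fold fall (-0.36 ± 0.07, SE, adjusted p = 0.00272). The histidine, isoleucine and threonine enzymes did not pass. HARS1 read 7.31 and 7.28 against 7.43 and 7.35 (adjusted p = 0.468), IARS1 10.72 and 10.70 against 10.81 and 10.82 (log2 fold change 0.10, adjusted p = 0.132). With each array centred the change of IARS1 was 0.23 and it passed (adjusted p = 0.0036), which gave 13 synthetases higher. TARS1 read 11.28 and 11.40 against 11.18 and 11.19 (log2 fold change -0.15, adjusted p = 0.0511) and passed in 5 of 12 alternatives, among them the fits without control replicate 1 (adjusted p = 0.027), without dim genes (0.042), with robust variances (0.047) and with the mean of probe sets (0.048). With each array centred its change was -0.02 (adjusted p = 0.77).

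The smaller calls did not hold in every fit. The log2 fold change of NARS1 stayed at 0.17 to 0.18 with any 1 array left out, so its size did not rest on a particular array. NARS1 missed the threshold whichever single array was left out (adjusted p from 0.067 to 0.11), MARS1 without control replicate 2 (0.13), F5446 replicate 1 (0.18) or F5446 replicate 2 (0.071), and KARS1 without control replicate 1 (0.072) or F5446 replicate 2 (0.096). Without an intensity trend in the variance model these 3 and RARS1 were not called (adjusted p from 0.060 to 0.22), which left 8 synthetases higher.

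**Figure D2:**
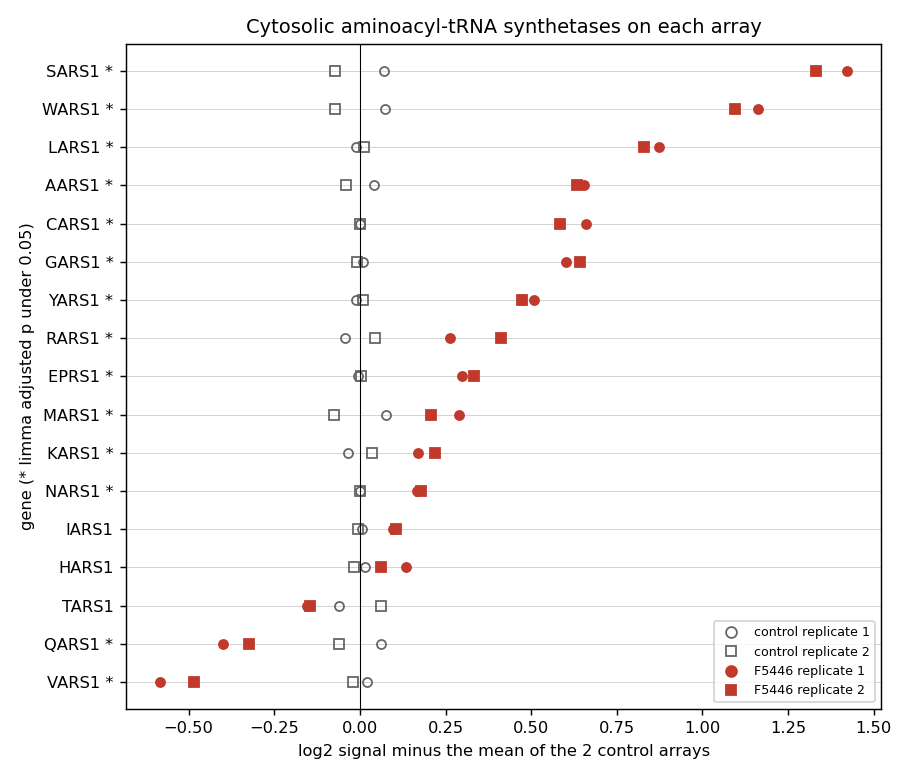
Log2 signal of each of the 17 cytosolic synthetase genes on each of the 4 arrays, minus the mean of its 2 control arrays; open grey symbols are control and filled red symbols F5446, and a star marks an adjusted p under 0.05. In all 17 genes the 2 treated arrays lie on the same side of both control arrays, above them in 14 genes and below them in TARS1, QARS1 and VARS1. The same holds, in either direction, for 66.2% of all named genes.

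Known features of the enzymes, which the symbol rule did not use, cut across these directions. Synthetases fall into class I and class II by the fold of the catalytic domain. Of the 10 class I enzymes measured, counting EPRS1 by its glutamate part, 7 rose and 2 fell (median log2 fold change 0.33), and of the 7 class II enzymes 5 rose (median 0.19). Some synthetases are bound by the AIMP scaffolds in the multi-synthetase complex. Of these complex-bound enzymes (EPRS1, IARS1, KARS1, LARS1, MARS1, QARS1 and RARS1) 5 of 7 rose and 1 fell, with a median of 0.25, and of the 10 others 7 rose and 1 fell, with a median of 0.56. AIMP1, the scaffold subunit measured, read 9.19 and 9.27 on the control arrays and 8.94 and 9.14 on the treated ones (log2 fold change -0.19, adjusted p = 0.0952); it passed after quantile normalization (0.045). These groupings were made after the values were seen and carry no test.

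Other enzymes of charging moved in both directions. Of 12 such genes listed, 6 were measured, of which 2 rose and 3 fell (median -0.19). Among all named genes whose mean signal reached the median of all probe sets, 55.7% passed, and 6 genes are too few for a comparison. TARS3, a second cytosolic threonine enzyme, read 5.63 and 5.66 against 7.23 and 7.05, a 2.82-fold rise (adjusted p = 8.20e-06), where TARS1 did not pass. PSTK, a kinase on the way to selenocysteine tRNA, rose 1.42-fold. DTD2, which removes wrongly charged amino acids, fell 2.46-fold (adjusted p = 1.53e-05), while PTRHD1 fell 1.40-fold and DTD1, which clears D-amino acids from tRNA, fell 1.20-fold.

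Set against the synthetases, the initiation factors had a lower median change, by 0.13 on the log2 scale, or 0.18 between the class means. The within-array gap between the 2 class medians of log2 signal was 0.31 and 0.27 on the control arrays and 1.04 and 1.10 on the treated arrays. This widening, 0.78, is larger than the 0.13, since a difference of medians need not equal a median of differences. After quantile normalization the difference of the median changes was 0.04, so its size depends on the scaling. Genes are not replicates, and the difference carries no test.

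The largest rises among initiation factors were in factors that guard the start codon. EIF1, which sits on the small subunit and keeps it scanning until a start codon is met, read 9.69 and 9.52 on the control arrays and 10.55 and 10.39 on the treated ones, a 1.82-fold rise (log2 fold change 0.86 ± 0.08, SE, adjusted p = 2.20e-05). Its close relative EIF1B read 7.13 and 7.31 against 7.97 and 8.06, a 1.73-fold rise (0.79 ± 0.10, SE, adjusted p = 0.000142). The sequences of EIF1 and EIF1B are alike, and signal shared between their probes was not tested. EIF5, which triggers GTP hydrolysis by EIF2 at the start codon, read 8.69 and 8.76 against 9.30 on both treated arrays, a 1.49-fold rise (0.57 ± 0.07, SE, adjusted p = 9.80e-05). In all 3 genes the groups were apart by several times the gap within a group. EIF1AD, named for an EIF1A-like domain, read 9.05 and 9.14 against 9.41 on both treated arrays (1.24-fold, adjusted p = 0.00351).

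The other members of this subgroup did not rise. EIF6, which keeps the large subunit from joining too early, read 9.67 and 9.49 against 9.31 and 9.17, a 1.27-fold fall (adjusted p = 0.00752). It missed the threshold with each array centred (adjusted p = 0.066), without control replicate 1 (0.075) and without F5446 replicate 2 (0.10). EIF5B, the GTPase that joins the subunits, read 9.44 on both control arrays against 9.42 and 9.41 (adjusted p = 0.816). EIF2D, a factor of unconventional initiation, read 9.44 and 9.48 against 9.33 and 9.37 (adjusted p = 0.216). The signs of EIF5B and EIF2D turned when the arrays were centred.

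Among the EIF4 genes, which bind the cap and unwind the mRNA, 2 of 7 rose and 1 fell. EIF4A3, a helicase that serves the exon junction complex more than initiation, read 9.78 and 9.83 against 9.21 and 9.25, a 1.49-fold fall (log2 fold change -0.57 ± 0.06, SE, adjusted p = 5.83e-05). EIF4B, a cofactor of the EIF4A helicase, read 10.79 and 10.83 against 11.13 and 11.04, a 1.21-fold rise (adjusted p = 0.00188), and its second probe set changed by 0.27. The call on EIF4B was lost without an intensity trend (adjusted p = 0.080). EIF4E3, a dim relative of the cap-binding protein, read 4.19 and 4.36 against 4.97 and 4.63 (1.44-fold, adjusted p = 0.0418). That call was lost whichever 1 array was left out, with log2 fold changes from 0.35 to 0.69 in those fits.

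EIF4E itself, the cap-binding factor, varied widely within the groups. It read 6.83 and 6.11 on the control arrays and 6.60 and 6.36 on the treated ones, so the treated values lay between the control values (log2 fold change 0.01 ± 0.21, SE, adjusted p = 0.991). EIF4E2, a cap-binding repressor, read 7.21 and 7.25 against 7.41 and 7.34 (adjusted p = 0.268), and EIF4H, a second EIF4A cofactor, 10.03 on both control arrays against 9.87 and 9.93 (adjusted p = 0.12). EIF4E1B, a form known from oocytes, read 4.64 and 5.32 against 5.09 and 5.33 with overlap (adjusted p = 0.493). With the arrays centred the sign of EIF4H turned and EIF4E2 passed (0.043), and after quantile normalization EIF4H passed as lower (0.023).

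The regulators fell together in most cases. EIF4EBP2, a repressor that binds EIF4E when mTOR is inactive, read 11.50 and 11.47 on the control arrays and 10.49 and 10.50 on the treated arrays, a 1.99-fold fall (log2 fold change -0.99 ± 0.05, SE, adjusted p = 3.92e-07). Its relative EIF4EBP1 read 8.82 and 8.87 against 8.26 and 8.23, a 1.52-fold fall (adjusted p = 0.00012). EEF2K, the kinase that phosphorylates EEF2 and slows elongation, read 7.89 and 7.74 against 7.23 and 7.02, a 1.62-fold fall (adjusted p = 0.000562). All 3 genes encode brakes on translation, and in none did the groups overlap, which also holds for 66.2% of all named genes.

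The 3 EIF2 kinases reported here had lower values after F5446, of which 2 passed. EIF2AK1, the kinase that responds to lack of heme, read 10.61 and 10.46 against 9.86 and 9.85, a 1.60-fold fall (log2 fold change -0.68 ± 0.06, SE, adjusted p = 2.76e-05). EIF2AK2, the kinase of double-stranded RNA, read 9.43 and 9.50 against 9.23 and 9.26, a 1.16-fold fall (adjusted p = 0.0209). That smaller call was lost with each array centred (0.30) and without control replicate 2 (0.11), F5446 replicate 1 (0.13) or F5446 replicate 2 (0.086). EIF2AK4, which senses uncharged tRNA, read 7.68 and 7.63 against 7.38 and 7.55 (log2 fold change -0.20, adjusted p = 0.138).

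The lysine methyltransferases of EEF1A did not move as one. EEF1AKMT2 read 7.18 and 7.16 against 6.62 and 6.39, a 1.59-fold fall (adjusted p = 0.00108). EEF1AKMT1 read 5.63 and 5.67 against 5.12 and 5.22, a 1.40-fold fall (adjusted p = 0.0182), and EEF1AKMT3, the regulator that rose, read 6.35 and 6.43 against 6.78 and 6.70 (1.28-fold, adjusted p = 0.0257). Neither EEF1AKMT1 (adjusted p from 0.062 to 0.11) nor EEF1AKMT3 (0.055 to 0.16) passed with any 1 array left out. EIF4ENIF1, which carries EIF4E into the nucleus, read 6.33 and 6.47 against 6.63 and 6.69 (adjusted p = 0.101) and passed with each array centred (0.020).

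The elongation factors held the largest change among the 53 genes, in 1 of a pair of related genes that moved apart. EIF5A2 encodes a second form of EIF5A, the hypusine-bearing factor that helps the ribosome past difficult stretches such as runs of proline. EIF5A2 read 7.86 and 7.93 on the control arrays and 9.81 and 10.02 on the treated arrays, a 4.05-fold rise (log2 fold change 2.02 ± 0.08, SE, adjusted p = 2.11e-07). EIF5A itself read 7.45 and 7.05 against 6.73 and 6.42, a 1.59-fold fall (-0.67 ± 0.16, SE, adjusted p = 0.00707). EIF5AL1, a near-identical copy of EIF5A, read 5.19 and 5.60 against 4.61 and 4.22 (-0.98 ± 0.20, SE, adjusted p = 0.00318).

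EIF5A and EIF5AL1 may share signal, so they do not count as independent readings, and both varied more within groups than most members. The EIF5A call was lost without control replicate 1 (adjusted p = 0.079) or F5446 replicate 2 (0.11), and the EIF5AL1 call without F5446 replicate 2 (0.053). Hypusine is placed on EIF5A by DHPS and then DOHH. DHPS rose 1.45-fold, from 8.67 and 8.57 to 9.20 and 9.12 (adjusted p = 0.000278). DOHH read 6.06 and 6.15 against 5.73 and 5.84 (adjusted p = 0.0718).

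Differences in the general elongation factors were small. EEF2, which translocates the ribosome and gave the highest signal of all named genes on each array, read 12.64 and 12.63 against 12.94 and 12.88, a 1.21-fold rise (log2 fold change 0.28 ± 0.04, SE, adjusted p = 0.000302). Quantile normalization sets the brightest gene to the same value on every array, so it gives EEF2 no change by construction, and without an intensity trend the adjusted p was 0.075. EEF1A1, which delivers charged tRNA, read 8.17 and 8.18 against 8.25 and 8.26 (adjusted p = 0.479); it has many near-identical copies. EEF1A2, the form of muscle and neurons, read 8.23 and 8.20 against 8.17 and 8.38 with overlap (adjusted p = 0.662).

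The exchange factor subunits that recharge EEF1A with GTP showed no call. EEF1G read 11.77 and 11.69 against 11.83 and 11.86 (adjusted p = 0.0888) and passed with each array centred (0.0020) and after quantile normalization (0.019), while its second probe set changed by -0.0024. EEF1D read 6.76 and 6.18 against 6.62 and 6.64, with the treated values between the control values (adjusted p = 0.551), though without control replicate 1 it passed (0.038). The pseudogene EEF1DP3 read 4.35 and 4.22 against 3.65 and 4.17 (adjusted p = 0.199). Of the termination factors, GSPT1, the GTPase that works with the release factor ETF1, read 10.30 and 10.32 against 9.74 and 9.84, a 1.43-fold fall (log2 fold change -0.52 ± 0.06, SE, adjusted p = 8.40e-05). Its relative GSPT2 read 3.55 and 3.27 against 3.45 and 3.13, dim on every array and overlapping (adjusted p = 0.685).

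**Figure D3:**
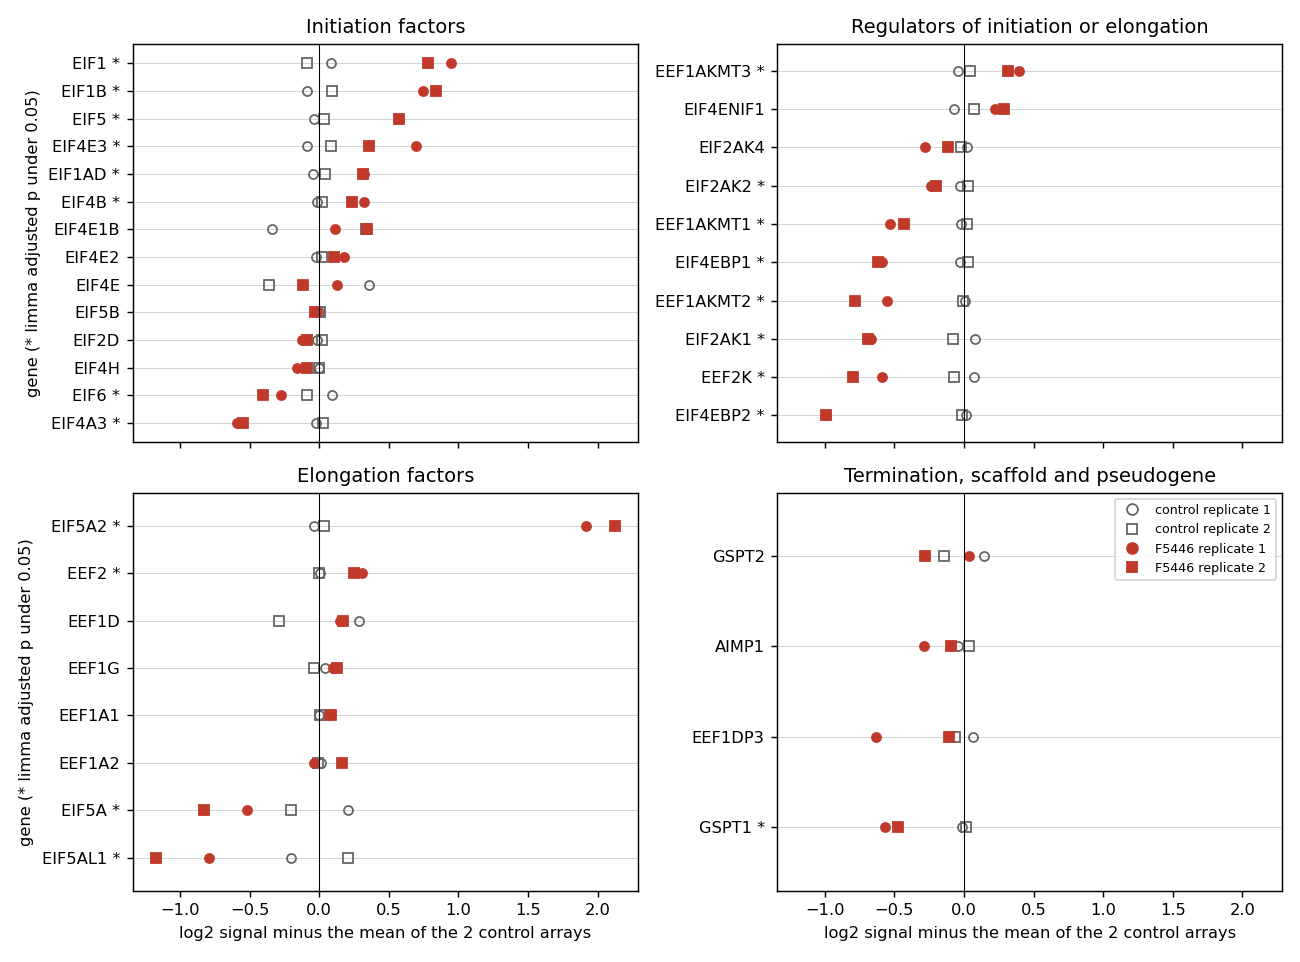
Log2 signal of the other 36 members on each array, minus the mean of the gene's 2 control arrays, in 4 panels by role; open grey symbols are control and filled red symbols F5446, and a star marks an adjusted p under 0.05. EIF5A2 stands farthest right at about 2 log2 units, and 8 of the 10 regulators have both treated arrays below both control arrays. Over all named genes 66.2% have both treated arrays above or both below the control arrays.

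Further genes of cytosolic translation and its control were split evenly: of 31 listed, 18 were measured, of which 5 rose and 5 fell, with a median log2 fold change of -0.09. The share that passed was 55.6%, against 55.7% of all named genes whose mean signal reached the median of all probe sets. As a list, these genes therefore did not pass more often than the named genes reaching that level. The largest rises were those of LTN1, a ubiquitin ligase that clears chains from stalled ribosomes (1.98-fold), DHPS, and MKNK2, a kinase of EIF4E (1.36-fold). The largest falls were those of IMPACT, an inhibitor of the kinase EIF2AK4 through its partner GCN1 (1.83-fold), PAIP2B, a repressor of the poly(A)-binding protein (1.40-fold), and PAIP1, which acts with that protein to aid initiation (1.26-fold). GCN1 read 9.02 and 8.80 against 8.93 and 8.85 (adjusted p = 0.894), and MTOR 8.82 and 8.72 against 8.97 and 8.79 (adjusted p = 0.367).

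The mitochondrial side of translation was read through its factors, since the mitochondrial synthetases were not analysed here. Of 20 factors listed, 14 were measured, of which 2 rose and 5 fell, with a median of -0.07. The share that passed was 50%. It was 55.7% among all named genes whose mean signal reached the median of all probe sets, as it did for these 14. As a list, these factors therefore did not pass more often than the named genes reaching that level. GATB, a subunit of the enzyme that makes glutaminyl-tRNA in mitochondria, read 6.98 and 7.03 against 5.68 and 5.67, a 2.52-fold fall (adjusted p = 1.15e-05). MTFMT, which formylates the initiator tRNA, read 8.86 and 8.85 against 7.73 and 7.65, a 2.24-fold fall (adjusted p = 2.70e-06). MTRF1, a release factor, fell 1.55-fold. MRRF, which recycles the mitochondrial ribosome, read 5.87 and 5.60 against 7.34 and 7.62, a 3.36-fold rise (adjusted p = 9.56e-06). QRSL1, another subunit of the GATB enzyme, rose 1.16-fold (adjusted p = 0.0361), so the 2 subunits measured differed in direction.

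Genes of amino acid supply and known ATF4 targets gave a wide spread. Of 35 listed, 20 were measured, of which 10 rose and 3 fell, with a median log2 fold change of 0.46. The share that passed was 65%, against 55.7% of all named genes whose mean signal reached the median of all probe sets. The list was chosen with earlier results known, so this difference carries no test. ATF4 itself read 10.13 and 9.98 against 10.72 and 10.71, a 1.58-fold rise (adjusted p = 2.63e-05). The largest rises were SESN2, a sensor of amino acid stress (8.57-fold), DDIT3, the gene of the stress factor CHOP (7.52-fold), and DDIT4, an inhibitor of mTOR signalling (6.67-fold). ASNS, which makes asparagine, was chosen after its value was seen and rose 3.01-fold, from 7.61 and 7.70 to 9.24 on both treated arrays.

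The 3 falls in that list were in genes of serine and proline synthesis. PSPH, which makes serine in the last step of its synthesis, read 9.38 and 9.46 against 8.23 and 8.15, a 2.34-fold fall (adjusted p = 1.42e-06), and PSAT1, the step before it, read 11.49 and 11.52 against 10.53 and 10.40, a 2.05-fold fall (adjusted p = 7.92e-07). PYCR1, which makes proline, fell 1.52-fold (adjusted p = 9.61e-05). PHGDH, the first step of serine synthesis, read 8.07 and 7.94 against 8.25 and 8.21, with no overlap (adjusted p = 0.0523).

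**Figure D4:**
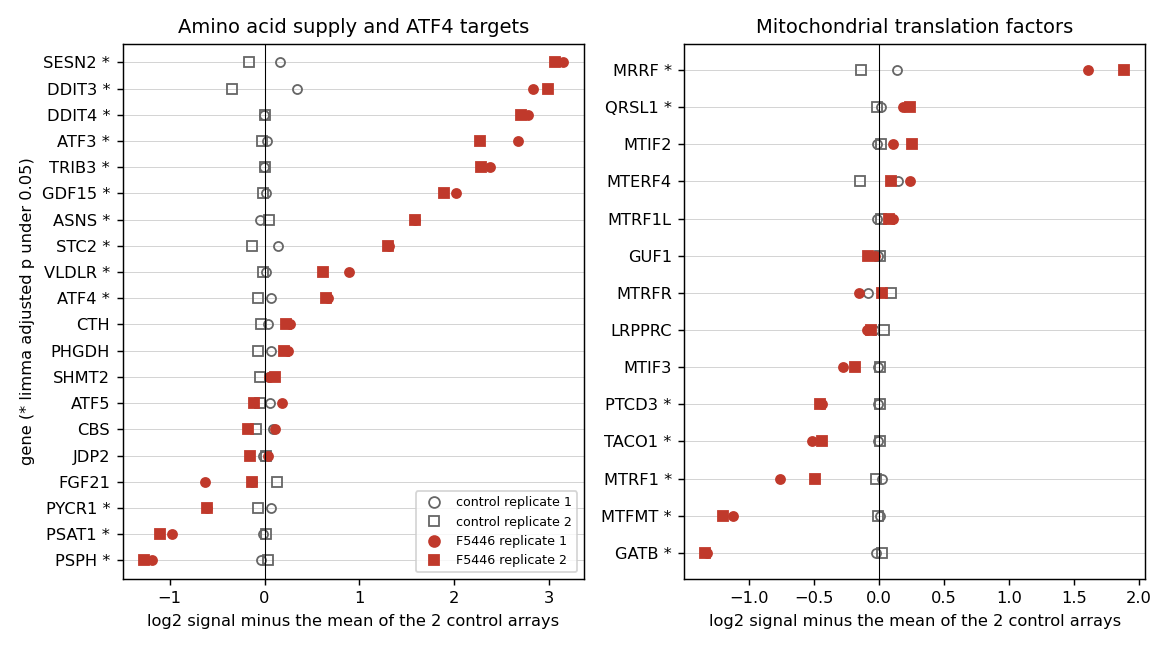
Log2 signal minus the mean of the gene's 2 control arrays for the 20 measured genes of amino acid supply and ATF4 targets (left) and the 14 measured mitochondrial translation factors (right); symbols as for the members, with a star for an adjusted p under 0.05. SESN2, DDIT3 and DDIT4 lie farthest right on the left, PSPH farthest left, and MRRF stands apart on the right.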

How the data were processed

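RNA of the 4 SW620 samples was hybridised to single-colour oligonucleotide arrays. The deposited table holds 1 value for each of 53617 probe sets and array. It was taken as log2 signal, inferred from its range of 0.710 to 13.8. Partek is the program named, per the submitters' processing notes; how background, scaling and probe summary were handled is not given in the sources. Array medians ran from 4.40 to 4.44.

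Platform annotation named 16098 probe sets, for 14884 genes. The probe set of highest mean represented a gene. limma 3.58.1 in R 4.3.3 was fitted to all named genes (lmFit with a group term alone; eBayes with trend), with two-sided p-values adjusted by Benjamini-Hochberg and a threshold of 0.05. The script was tested on simulated data. Errors of log2 fold changes are SEs. The number of arrays limits precision.

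Per-array values are given for synthetases that passed, for up to 4 largest rises and falls in each other class, and for members near the edge of a class or against it; from other lists up to 3 rises and 3 falls are named. The members, lists and classes were chosen with earlier results of these data known. Alternatives tried were centring, quantile normalization, a dim-gene filter, 2 other variance models, mean probe sets, all probe sets, the replicate block and leaving out each array. One gene that the symbol pattern takes is not reported here. Sequences of the human genes, and a planned promoter motif count, were not used here.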

Additional observations from a re-analysis of the deposited data

How the results depend on the processing

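Of the 35 members called, 21 kept the call under all 12 alternatives run on single genes and 14 lost it under at least 1; 8 members gained a call under at least 1. Across the 4 fits that leave out 1 array, members called lower numbered 9 to 12 (14 with all arrays), initiation factors lower 1 to 2 (2), elongation factors lower 0 to 2 (2), elongation factors higher 2 to 3 (2), regulators higher 0 (1), and the synthetase minus initiation median difference was 0.089 to 0.16 (0.13). The fall to 9 came without F5446 replicate 2. Where limma called 0 there, 2 elongation factors were lower, and 0 to 2 regulators higher, at an unadjusted p under 0.05; with all probe sets tested, 0 regulators were higher (1 unadjusted). Initiation factors called lower numbered 1 with arrays centred, without a trend and with all probe sets tested. Elongation factors called higher numbered 1 without a trend and those lower 1 with all probe sets tested. Regulators called higher numbered 2 with arrays centred or quantile normalized. The median difference was 0.043 after quantile normalization and 0.18 between class means, a setting chosen after seeing the data. Without a trend 14 members were called higher and 12 lower, with EEF2, EIF1AD, EIF2AK2, EIF4B, EIF6, KARS1, MARS1, NARS1 and RARS1 lost; with all probe sets tested 16 and 10, with EEF1AKMT1, EEF1AKMT3, EIF2AK2, EIF4E3, EIF5A, EIF6, KARS1, MARS1 and NARS1 lost. The cause of these shifts was not tested. Same-numbered arrays deviated from their group means with a correlation of 0.04, so the numbers were not taken as pairs; the replicate block gave 20 members higher and 16 lower, in place of 21 and 14, with EIF4E3 lost and AIMP1 and TARS1 gained as lower. Without detection calls, changes of dim genes such as EIF4E3 may be understated.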
